A study of Mus musculus with 7 samples.

Results

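The genes described here encode the Wnt ligands and the proteins through which cells make, receive and modulate them at the cell surface. They comprise 50 genes, chosen by name from the known components of the pathway, out of 21911 protein-coding genes on chromosomes 1 to 19, X and Y. By role they fall into 19 Wnt ligands, 10 Frizzled receptors, 5 co-receptors, 2 ligand processing genes, 9 genes of the R-spondin axis and 5 secreted inhibitors. H3K27-Ac, the acetylation of histone H3 at lysine 27, marks active promoters and enhancers, and was mapped by ChIP-seq, in which an antibody brings down the DNA fragments that carry the mark. The cells were 3 tumour cell clones from an FVB/129P2 backcross with the genotype *Cdkn2ab*, in which the locus for p15Ink4b, p16Ink4a and p19Arf was knocked out. All 3 clones carry this knockout, and neither wild-type cells nor a treated group were part of the experiment. Each clone grew in soft agar from cells of an independent skin tumour, so that a value of a clone is the value of 1 cell line and not of a tumour. Clones 1 and 2 each had a single H3K27-Ac library, and 2 libraries of clone 3 were pooled by the authors. The IgG controls came from clones 1 and 3, and none of clone 2 was analysed here. The control behind the peak calls of clone 2 is not given in the sources used here, which bears on every comparison of its peaks with those of the other clones.

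Wnt proteins are secreted glycolipoproteins. Porcn adds the lipid that they need to bind a receptor, and Wls carries them to the cell surface. On the receiving cell a Frizzled protein together with Lrp5 or Lrp6 stabilises β-catenin, which acts with TCF/LEF factors in the nucleus, whereas Ror1, Ror2 and Ryk take part in β-catenin-independent responses, for which Wnt5a is the best known ligand. R-spondins bind the Lgr receptors and withdraw Frizzled proteins from the ubiquitin ligases Znrf3 and Rnf43. Dkk proteins bind Lrp5 and Lrp6, and Sfrp proteins bind the ligands themselves. In skin the pathway drives the formation of hair follicles and their renewal.

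A promoter peak was counted for a gene when a peak overlapped the 1 kb on either side of any annotated transcription start, and a body peak when it lay elsewhere in the gene. The lists hold 29182, 49587 and 29277 peaks for clones 1, 2 and 3, and their weakest peaks rest on 13, 12 and 25 ChIP reads at the summit. A weaker site is not listed, and a gene without a peak is therefore written here as not listed. This lowest number was highest in clone 3, whose libraries were pooled, and its part in the genes not listed there was not tested. Because the clones differ in depth and in the number of peaks, the strength of a peak is given for each clone as its percentile by −log10 q among all promoter peaks of the same clone. There were 12577, 16190 and 12237 promoter peaks in clones 1, 2 and 3, and a longer list with more weak peaks gives a strong peak a higher percentile, so that a higher percentile in clone 2 is not by itself a stronger mark. In a culture of many cells, a mark in fewer cells and less of the mark in every cell cannot be told apart.

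Most receptor and co-receptor genes carried H3K27-Ac at a promoter in every clone, and 1 of the 19 ligand genes did. Promoter peaks were found at 23, 35 and 18 of the 50 genes in clones 1, 2 and 3, a mean of 25.3 ± 8.7 (SD, n = 3 clones). Among all protein-coding genes 49.8%, 56.9% and 48.1% had a promoter peak in clones 1, 2 and 3, and for the 50 genes these shares were 46.0%, 70.0% and 36.0%. In all 3 clones a promoter peak was present at 17 of the 50 genes, or 34.0%, beside 46.5% of all protein-coding genes. These 17 genes were 16 of the 31 receptors and modulators, or 51.6%, near the share of all protein-coding genes, and 1 of the 19 ligands, or 5.26%. Receptors and co-receptors alone gave 13 of 15, or 86.7%. No promoter peak was listed in any clone for 15 of the 50 genes, or 30%, beside 42.6% of all protein-coding genes. Of the 50 genes 11 had a promoter peak in clone 2 only, or 22.0%, beside 6.15% of all protein-coding genes, and 6 had one in clones 1 and 2 but not in clone 3, or 12%, beside 2.98%. No gene of the 50 had a promoter peak in clone 1 only or in clone 3 only, patterns that only 35 and 48 of the 21911 protein-coding genes had.

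**Figure D1:**
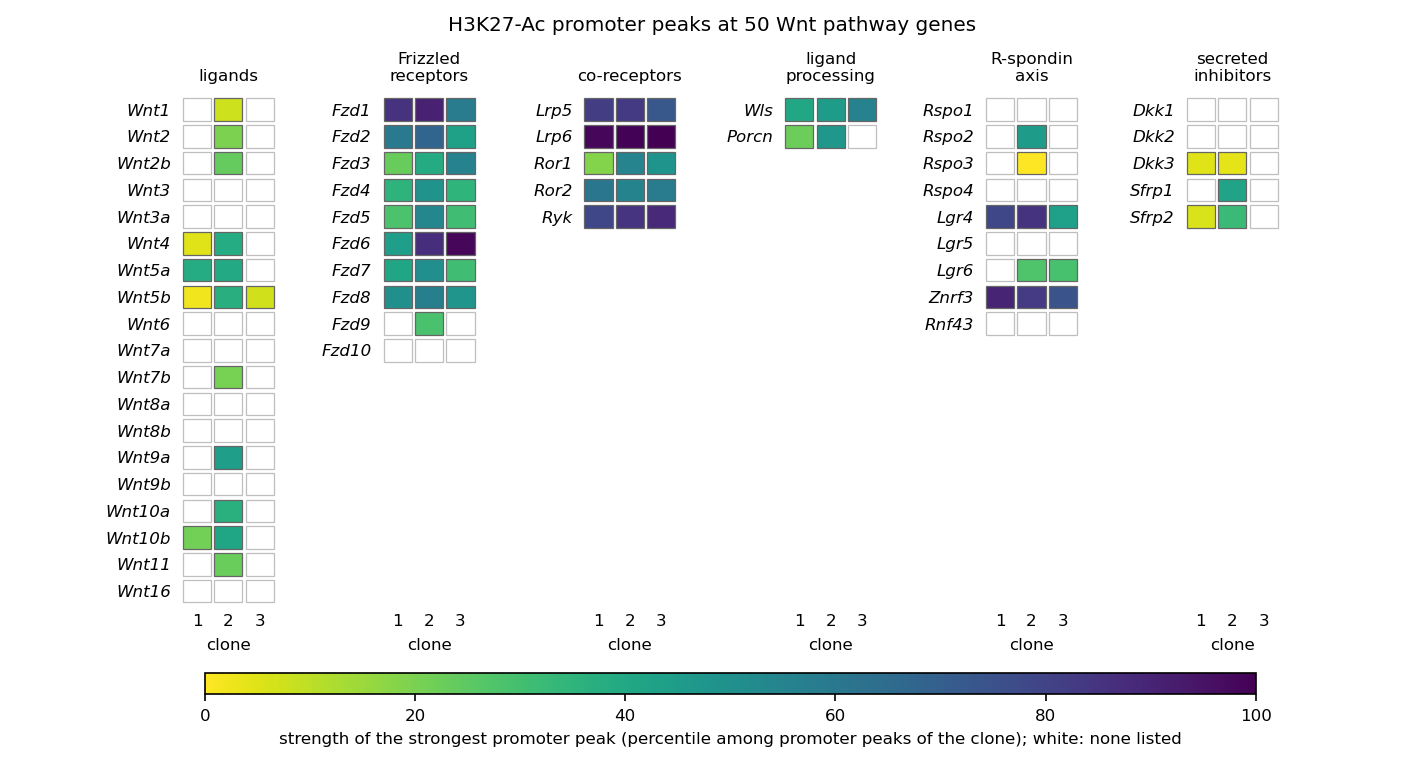
Each box is 1 gene in 1 clone, with the genes in columns by role and the clones 1, 2 and 3 from left to right. The colour gives the percentile of the strongest promoter peak by −log10 q among all promoter peaks of that clone, and a white box means that no promoter peak was listed. The columns of receptors and co-receptors are filled for 13 of 15 genes in every clone, whereas among the ligands only Wnt5b has 3 filled boxes.

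Promoter sequences of 8 starts are shown to set base composition beside the mark. They belong to 2 receptor genes marked in every clone, *Fzd1* and *Ryk*, the ligand start with the most reads among those marked in clone 2 only, *Wnt9a*, both marked starts of *Wnt5b*, and *Wnt3*, *Fzd10* and *Dkk1*, without a peak within 50 kb in any clone. The sequences are those of RefSeq on GRCm38.p6 and run 5′ to 3′ on the strand of the gene, from 250 bases before to 50 bases after the start, with every CG dinucleotide in capitals. Their positions are chr5:4758167-4758466 on the minus strand for *Fzd1*, chr9:102834670-102834969 on the plus strand for *Ryk* and chr11:59306680-59306979 on the plus strand for *Wnt9a*. The upstream start of *Wnt5b* lies at chr6:119544298-119544597 and its internal start at chr6:119467162-119467461, both on the minus strand. *Wnt3* lies at chr11:103773925-103774224 and *Fzd10* at chr5:128600856-128601155, both on the plus strand, and *Dkk1* at chr19:30549447-30549746 on the minus strand.
Fzd1: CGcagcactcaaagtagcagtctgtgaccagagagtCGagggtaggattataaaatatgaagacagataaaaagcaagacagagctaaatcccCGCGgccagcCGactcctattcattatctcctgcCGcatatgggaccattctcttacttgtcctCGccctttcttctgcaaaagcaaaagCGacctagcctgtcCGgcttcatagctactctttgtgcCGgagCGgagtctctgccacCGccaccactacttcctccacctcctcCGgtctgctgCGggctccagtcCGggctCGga
Ryk: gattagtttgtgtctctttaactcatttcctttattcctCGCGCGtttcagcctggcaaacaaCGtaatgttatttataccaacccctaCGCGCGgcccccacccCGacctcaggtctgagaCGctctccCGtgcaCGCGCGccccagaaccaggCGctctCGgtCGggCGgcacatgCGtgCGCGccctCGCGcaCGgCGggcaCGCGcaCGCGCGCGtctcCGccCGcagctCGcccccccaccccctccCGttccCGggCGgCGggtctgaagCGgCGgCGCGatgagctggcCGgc
Wnt9a: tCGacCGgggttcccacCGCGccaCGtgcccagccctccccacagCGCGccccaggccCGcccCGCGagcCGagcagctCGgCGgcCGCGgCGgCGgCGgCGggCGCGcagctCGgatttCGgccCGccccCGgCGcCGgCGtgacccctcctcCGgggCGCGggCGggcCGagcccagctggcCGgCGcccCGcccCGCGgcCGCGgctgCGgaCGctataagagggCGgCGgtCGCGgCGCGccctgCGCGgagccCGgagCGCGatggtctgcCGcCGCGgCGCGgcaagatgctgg
Wnt5b upstream: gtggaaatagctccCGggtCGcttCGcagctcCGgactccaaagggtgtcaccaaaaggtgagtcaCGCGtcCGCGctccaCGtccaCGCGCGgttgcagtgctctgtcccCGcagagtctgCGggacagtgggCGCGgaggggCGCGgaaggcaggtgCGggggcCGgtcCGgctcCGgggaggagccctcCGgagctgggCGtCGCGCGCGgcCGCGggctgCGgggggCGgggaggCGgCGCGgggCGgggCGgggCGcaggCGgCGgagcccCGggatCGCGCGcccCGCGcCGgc
Wnt5b internal: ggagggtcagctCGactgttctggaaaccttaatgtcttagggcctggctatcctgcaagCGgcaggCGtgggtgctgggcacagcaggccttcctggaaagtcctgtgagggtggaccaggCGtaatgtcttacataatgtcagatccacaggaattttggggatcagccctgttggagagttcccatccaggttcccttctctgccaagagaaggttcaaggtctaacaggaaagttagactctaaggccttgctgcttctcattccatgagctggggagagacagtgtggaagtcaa
Wnt3: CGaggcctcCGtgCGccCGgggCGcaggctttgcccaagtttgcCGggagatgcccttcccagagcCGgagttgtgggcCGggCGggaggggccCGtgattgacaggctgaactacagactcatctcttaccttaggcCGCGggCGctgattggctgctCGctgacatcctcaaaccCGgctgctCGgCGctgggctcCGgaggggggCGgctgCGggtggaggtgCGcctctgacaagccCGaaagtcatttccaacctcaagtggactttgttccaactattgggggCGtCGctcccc
Fzd10: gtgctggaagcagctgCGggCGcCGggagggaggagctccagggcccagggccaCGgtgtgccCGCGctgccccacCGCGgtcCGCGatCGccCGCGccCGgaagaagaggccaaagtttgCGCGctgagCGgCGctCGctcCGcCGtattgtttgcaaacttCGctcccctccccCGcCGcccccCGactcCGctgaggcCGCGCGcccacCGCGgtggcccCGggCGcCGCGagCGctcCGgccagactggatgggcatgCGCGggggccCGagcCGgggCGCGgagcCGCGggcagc
Dkk1: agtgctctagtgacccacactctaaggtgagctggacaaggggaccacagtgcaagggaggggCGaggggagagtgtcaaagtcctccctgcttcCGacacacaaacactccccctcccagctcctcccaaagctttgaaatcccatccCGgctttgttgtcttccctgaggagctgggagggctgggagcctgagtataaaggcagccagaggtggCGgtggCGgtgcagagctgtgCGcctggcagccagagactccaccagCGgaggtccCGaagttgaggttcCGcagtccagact

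All 300 bases of the *Ryk* window lay under a peak in each of the 3 clones. The *Fzd1* window was covered whole in clones 1 and 2 and not at all in clone 3, whose peak ran from chr5:4756992 to 4758066 just downstream, over the start that GENCODE gives. The *Wnt9a* window lay under a peak in full in clone 2 and had no covered base in clones 1 and 3. The upstream *Wnt5b* window had 284 covered bases in clone 2 and none in clones 1 and 3, and the internal one had 300 in clone 2, 269 in clone 3 and none in clone 1. The ratio of observed to expected CG dinucleotides was 0.75 for *Fzd1* and 0.74 for *Wnt3*, although the one was marked and the other was not. It was 1.27 for *Ryk* and 1.12 for *Wnt9a*, higher than in 99.8% and 97.7% of 20150 windows of protein-coding genes, and 0.99 for *Fzd10*, higher than in 91.3%, although no peak lay near *Fzd10*. *Dkk1* had 0.33, and the *Wnt5b* windows had 1.06 upstream and 0.19 at the internal start, beside a median of 0.59 over all windows. The letters CTTTGAT, a form of the core of the TCF/LEF motif, were searched on both strands and were in none of the 8 windows, beside 3.16% of all windows. Related forms of the core were not searched, so a window without these letters is not shown to lack the motif. The letters TGANTCA, the AP-1 motif, were in 1 of the 8, the upstream *Wnt5b* window, beside 7.0% of all windows. Windows were matched by symbol for 33 of the 50 genes, or 66.0%, too few for a comparison of base composition over the whole list, and none was made.

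The 5 co-receptor genes had a promoter peak in every clone. *Lrp6*, the partner of Frizzled in β-catenin signalling, had the strongest promoter peak of all 50 genes in each clone, with 235, 434 and 252 ChIP reads at the summit in clones 1, 2 and 3. The deposited fold enrichment there was 50.3, 93.4 and 27.2, and the percentile 98.1, 99.4 and 99.9. In clone 2 this peak ran from chr6:134565884 to 134567769, over the outermost start of the gene. *Lrp5*, the paralogue of *Lrp6*, had 133, 274 and 97 reads and percentiles of 82.3, 83.5 and 72.8. *Lrp5* also had 5, 20 and 3 body peaks and 13177, 20496 and 7234 bases under peaks within 50 kb, more than any other gene of the 50 in clones 1 and 2. With peaks no more than 12.5 kb apart joined, the domain at *Lrp5* ranked 231 of 14560 domains by bases under peaks in clone 1 and 251 of 18280 in clone 2, but 3315 of 16371 in clone 3.

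*Ryk*, a receptor that resembles a tyrosine kinase, had 148, 328 and 130 reads at its promoter and percentiles of 78.7, 84.9 and 89.0. *Ror2*, a receptor tyrosine kinase that binds Wnt5a, had 90, 150 and 90 reads and percentiles of 60.6, 55.4 and 58.8. The span of *Ror2* held 10, 21 and 4 body peaks, the most of the 50 genes in clones 1 and 2. *Ror1*, its paralogue, had 31, 153 and 59 reads and percentiles of 18.7, 54.8 and 48.4, so that its place in the order was low in clone 1 only. Body peaks of *Ror1* numbered 0, 3 and 6.

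Of the 10 Frizzled genes, which encode the seven-pass receptors of Wnt, *Fzd1* to *Fzd8* had a promoter peak in all 3 clones. *Fzd1* had 159, 342 and 94 reads and percentiles of 85.9, 90.7 and 58.9. *Fzd6*, on Chr15, had 80, 325 and 195 reads and percentiles of 44.5, 87.1 and 98.3, and its place differed more between clones than that of any other gene with 3 promoter peaks. *Fzd2* had 101, 211 and 58 reads and percentiles of 59.0, 67.6 and 43.0, and *Fzd8* had 80, 158 and 59 reads and percentiles of 50.3, 57.2 and 47.7. *Fzd3*, *Fzd4*, *Fzd5* and *Fzd7* had percentiles between 23.4 and 55.8. The strongest peak at *Fzd4* also lay within 1 kb of a start of *Tmem135* in every clone and cannot be assigned to either gene. *Fzd9* had a promoter peak in clone 2 only, with 38 reads and percentile 28.9. For *Fzd10* the nearest peak was 407, 384 and 407 kb from the start.

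Across the genes with promoter peaks in all 3 clones, 16 of 17 had peaks of the 3 clones that overlapped each other, the exception being *Wnt5b*. A start base itself was under a peak for 13 of the 17 in clone 1, 17 in clone 2 and 12 in clone 3. This held in every clone for 11 of them.

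**Figure D2:**
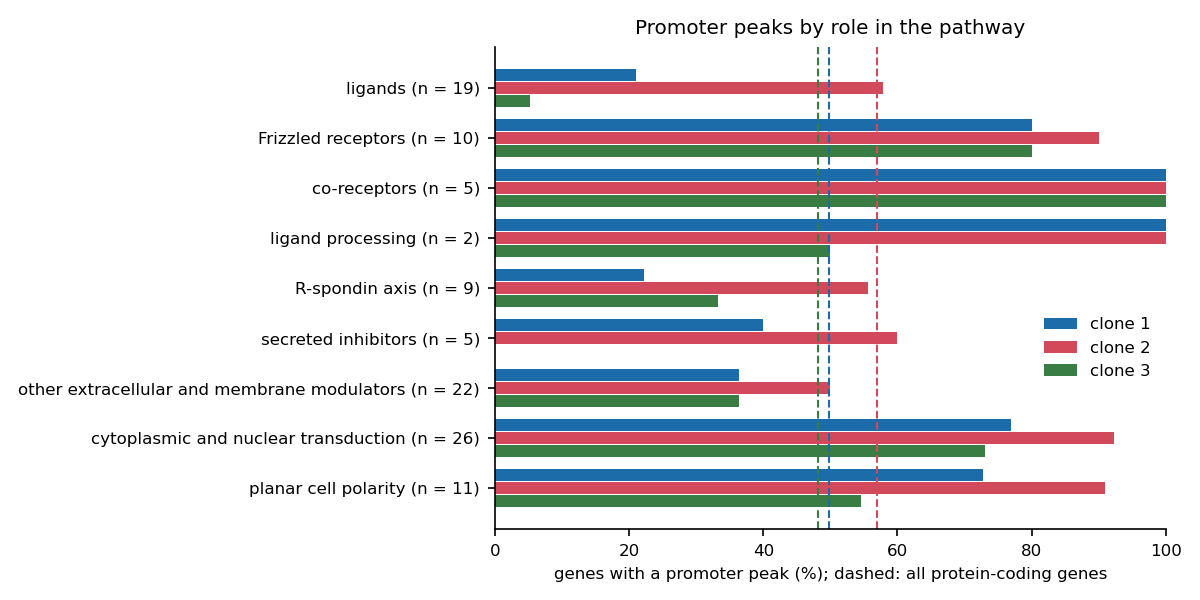
Bars give the share of genes with a promoter peak, in percent, for the 6 roles and for 3 further lists of pathway genes, in clones 1, 2 and 3, with the number of genes in parentheses. Dashed lines give the share over all protein-coding genes in the clone of the same colour, at 49.8%, 56.9% and 48.1%. Frizzled receptors stand at 80% to 90% and co-receptors at 100%, and ligands at 21.1%, 57.9% and 5.26%.

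More ligand genes were marked in clone 2 than in the other clones. Their shares were 21.1%, 57.9% and 5.26% in clones 1, 2 and 3, beside 49.8%, 56.9% and 48.1% of all protein-coding genes. The ligand share was thus near that of all genes in clone 2 and below it in clones 1 and 3. Of the 19 ligands 4 had a promoter peak in clone 1, 11 in clone 2 and 1 in clone 3, a mean of 5.3 ± 5.1 (SD, n = 3 clones). Of the 31 receptors and modulators the mean was 20.0 ± 3.6, a count from a longer list. Their shares were 61.3%, 77.4% and 54.8% in clones 1, 2 and 3. The listed ligand promoter peaks had median percentiles of 13, 36.4 and 7.3, and those of receptors and modulators 44.5, 52.1 and 55.8. The ligand medians rest on few genes. In clone 1 the 4 ligands stood at 2.3, 4.7, 21.3 and 38.3, and in clone 3 the value is that of *Wnt5b* alone. A stricter list of peaks with −log10 q of at least 5 left 2, 10 and 0 ligands. With the same number of peaks taken from each clone, the strongest first, 4, 8 and 1 ligands had a promoter peak. The share of all protein-coding genes was not computed under either setting. These counts therefore have no baseline and do not show whether ligands differ from other genes there.

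*Wnt5b*, a β-catenin-independent ligand, was the only ligand with a promoter peak in all 3 clones, at different starts. In clone 1 the peak lay at the upstream start (chr6:119543965-119544189) and rested on 17 reads, percentile 2.3. In clone 3 it lay 77.1 kb downstream at the internal start (chr6:119467193-119467536) and rested on 31 reads, percentile 7.3. In clone 2 both starts had a peak, the stronger with 62 reads at the internal start, percentile 36.9. The sequences of both starts are printed above. The peaks of clones 1 and 3 are among the weakest promoter peaks of their lists. Without clone 3, 4 ligands had a promoter peak in both remaining clones, in place of 1 in all 3.

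*Wnt5a*, its paralogue, was present in clones 1 and 2 and absent from the list of clone 3. Its strongest promoter peak had 68 reads in clone 1 (chr14:28504522-28507514) and 105 in clone 2 (chr14:28504106-28506901), at percentiles 38.3 and 39.8. In clone 3 no base within 50 kb lay under a peak, and the nearest peak was 680 kb from the start. Among protein-coding genes whose clone 2 promoter peak had between 0.8 and 1.2 times the reads of *Wnt5a*, 22.2% had none in clone 3. *Wnt10b*, a ligand of the hair follicle, had the same pattern, with 40 reads in clone 1 and 101 in clone 2, percentiles 21.3 and 40.9, and none in clone 3. Its nearest peak in clone 3 was 2.04 kb from a start, outside the window of 1 kb. *Wnt4* had 28 and 64 reads in clones 1 and 2, percentiles 4.7 and 38.5, and its nearest peak in clone 3 was 8.71 kb away.

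In clone 2 only, a promoter peak was listed for *Wnt1*, *Wnt2*, *Wnt2b*, *Wnt7b*, *Wnt9a*, *Wnt10a* and *Wnt11*. *Wnt9a* had the strongest of these, with 94 reads, fold enrichment 20.6 and percentile 44.4 (chr11:59306363-59307986). In clones 1 and 3 the nearest peak to *Wnt9a* was 78.1 and 78.0 kb away, and no base within 50 kb lay under a peak, beside 3864 bases in clone 2. Of the protein-coding genes with 0.8 to 1.2 times as many reads in clone 2, 10.7% lacked a promoter peak in both other clones. *Wnt10a*, which is needed for teeth and hair follicles, had 55 reads and percentile 36.4, and 42.4% of genes with such a number of reads lacked a peak in both other clones. *Wnt11* had 38 reads and *Wnt2b* 29, at percentiles 22.9 and 23.5. *Wnt7b* had 27 reads, *Wnt2* 26 and *Wnt1* 26, at percentiles 20.5, 19.6 and 7.7. Between 77.3% and 81.8% of genes with about as few reads as *Wnt2b*, *Wnt7b*, *Wnt2* and *Wnt1* lacked a promoter peak in both other clones. The peak counted for *Wnt1*, the founding member of the family, did not cover its start and lay in a domain shared with *Wnt10b*.

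**Figure D3:**
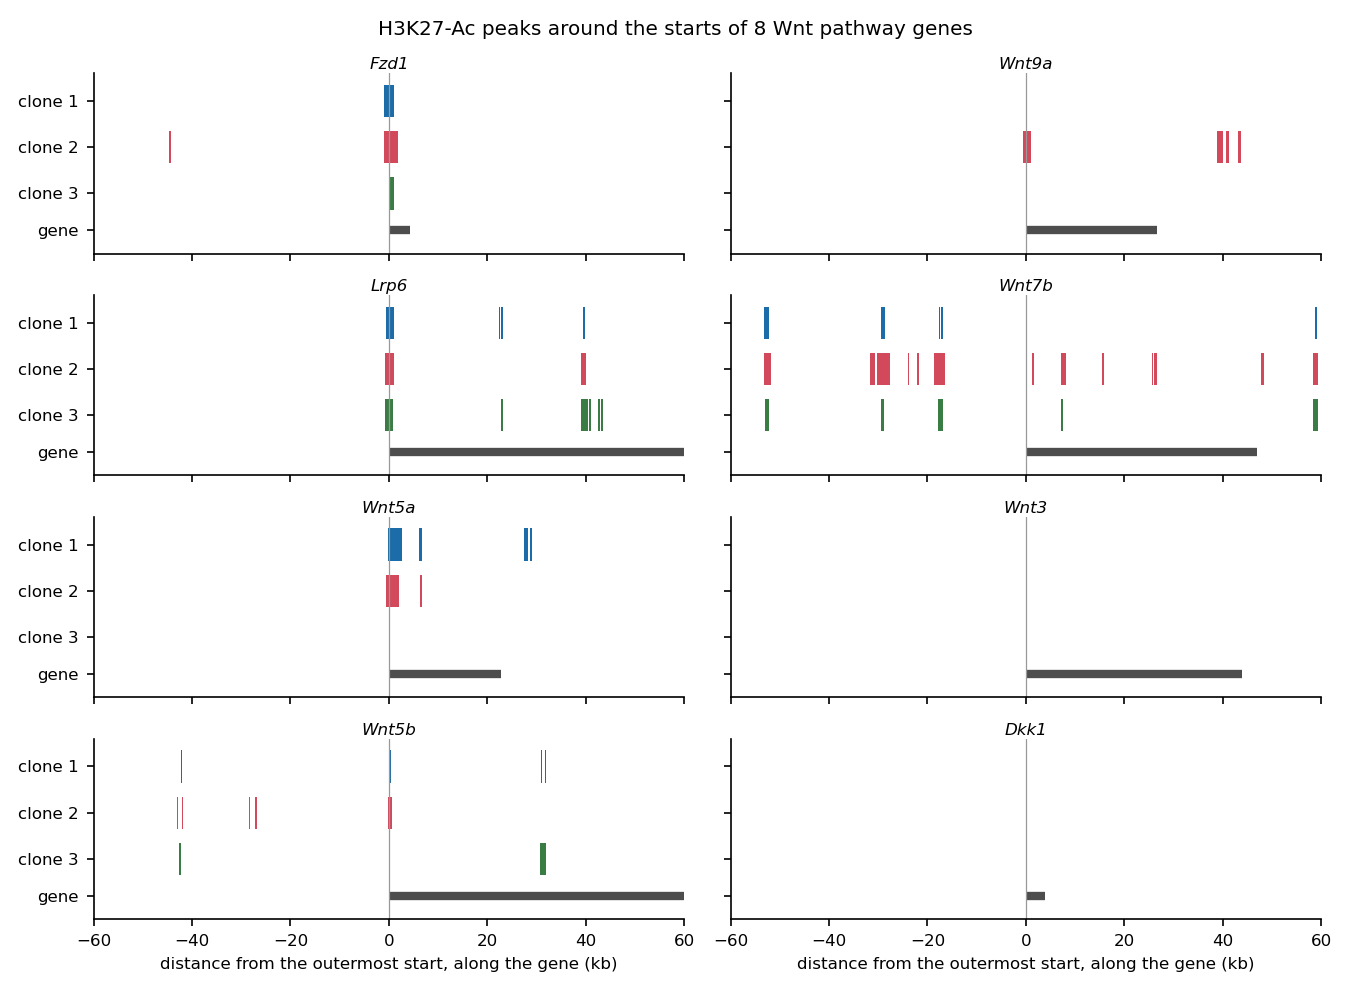
Peaks of clones 1, 2 and 3 are drawn as coloured blocks by their distance in kb from the outermost start of 8 genes, with the gene as a grey bar running to the right and very short peaks widened to stay visible. Fzd1 and Lrp6 have a block at the start in every clone, Wnt5a has one in clones 1 and 2, Wnt9a in clone 2, and Wnt3 and Dkk1 have no block within the 60 kb shown on either side.

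No clone had a promoter peak at 8 of the 19 ligands, which were *Wnt3*, *Wnt3a*, *Wnt6*, *Wnt7a*, *Wnt8a*, *Wnt8b*, *Wnt9b* and *Wnt16*. This share of 42.1% is near the 42.6% of all protein-coding genes. Around *Wnt3*, a canonical ligand, no base within 50 kb lay under a peak in any clone, as was the case for 4 of the 50 genes and for 20.1% of all protein-coding genes. *Wnt3a*, its paralogue, had 4646, 6746 and 4648 bases under peaks within 50 kb, but 4 other genes start in that window and its own nearest peak was 62.0, 15.6 and 61.8 kb from the start. *Wnt8a* had 2532, 2372 and 4331 bases, with 3 other genes starting in the window. *Wnt6* had 454, 5233 and 1125 bases, the same bases as *Wnt10a*, which lies next to it. *Wnt9b* had 2107, 2706 and 1931 bases, with its nearest peak 51.2 to 51.3 kb away. In all, 8 of the 50 genes have another of the 50 starting in their window, in the pairs *Wnt1* and *Wnt10b*, *Wnt3* and *Wnt9b*, *Wnt3a* and *Wnt9a*, and *Wnt6* and *Wnt10a*, so that their windows are not independent.

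*Wnt7b* had 2433, 12675 and 3664 bases under peaks within 50 kb in clones 1, 2 and 3, which gave it ranks 9, 2 and 6 among the 19 ligands. Without bases within 1 kb of a start of another gene its bases were the same and its ranks 5, 1 and 3. With −log10 q of at least 5 the ranks were 10, 1 and 7. Within 100 kb it had 28963, 38614 and 27194 bases and had rank 1 in every clone. The next ligand at that distance was *Wnt10b* with 12935 bases in clone 1 and 29481 in clone 2, and *Wnt2b* with 13176 in clone 3. The difference came from peaks that lie between 50 and 100 kb from the gene. No promoter peak of *Wnt7b* was listed in clones 1 and 3, where the nearest peak to any of its 6 starts was 16.9 and 2.8 kb away. In clone 2 it had 2 promoter peaks, both counted at internal starts and neither over a start base. The stronger is at chr15:85566537-85567000, and the other lay 1.13 kb from the outermost start.

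**Figure D4:**
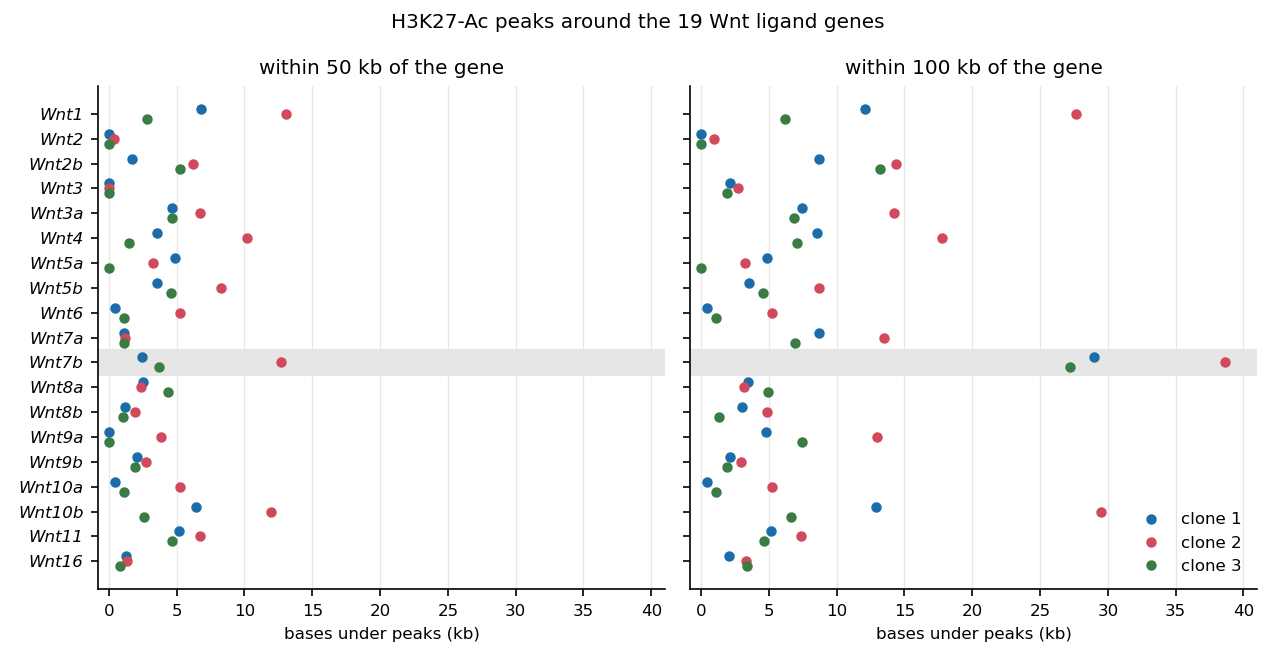
Points give the bases under peaks, in kb, within 50 kb (left) and 100 kb (right) of each of the 19 ligand genes, 1 point per clone. Wnt7b is shaded: its points lie among those of other ligands on the left, and at 27.2 kb or more, above every other ligand of the same clone, on the right.

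Over all 50 genes the median number of bases under peaks within 50 kb was 2038, 3425 and 1904.5 in clones 1, 2 and 3, with a mean of 2456 ± 842 (SD, n = 3 clones). The median over all protein-coding genes was 2145, 3167 and 2160, with a mean of 2491 ± 586. Compared within each clone, the median of the 50 genes was lower in clones 1 and 3 and higher in clone 2. The SD over clones also holds differences between the lists and is not the spread of this difference. For ligands alone the medians were 2107, 5233 and 1520, and for receptors and modulators 1987, 3194 and 2107. The windows of 35 of the 50 genes hold starts of other protein-coding genes, and their bases therefore include promoter peaks of those neighbours.

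Of the genes for ligand processing, *Wls* had 71, 134 and 75 reads at its promoter and percentiles of 40.6, 45.0 and 56.0. *Porcn*, on the X chromosome, had 35 and 106 reads in clones 1 and 2, percentiles 22.6 and 46.7, and no promoter peak in clone 3, where the nearest peak was 15.8 kb from a start.

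In the R-spondin axis the genes marked in more than 1 clone encode receptors or a ubiquitin ligase of the receiving cell. *Znrf3*, the ubiquitin ligase that removes Frizzled, had 159, 327 and 152 reads and percentiles of 90.2, 82.7 and 74.5, with 7562, 10218 and 12913 bases under peaks within 50 kb. *Lgr4*, an R-spondin receptor, had 132, 301 and 108 reads and percentiles of 78.6, 85.3 and 43.4. *Lgr6*, a receptor known from hair follicle stem cells, had no promoter peak in clone 1, and 35 and 51 reads in clones 2 and 3 at percentiles 27.5 and 29.1, where the peaks lay at internal starts. No promoter peak was listed for *Lgr5*, the stem cell marker of the hair follicle bulge and intestine, and its nearest peak to any start was 70.2, 14 and 69.9 kb away. *Rnf43*, the paralogue of *Znrf3*, had none either, although a peak lay 2.85, 2.76 and 2.96 kb from one of its 8 starts and 3260, 7485 and 4096 bases within 50 kb were under peaks. Of the 4 R-spondin ligands *Rspo2* (106 reads, percentile 45.0; chr15:43169460-43170976) and *Rspo3* (14 reads, percentile 0.2) had a promoter peak in clone 2 only, and *Rspo1* and *Rspo4* had none. In clones 1 and 3 the nearest peak to *Rspo2* was 111 kb away.

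Secreted inhibitors had promoter peaks at 2, 3 and 0 of 5 genes in clones 1, 2 and 3. These shares of 40%, 60% and 0% stand beside 49.8%, 56.9% and 48.1% of all protein-coding genes. *Sfrp1* had 92 reads in clone 2, percentile 42.0 (chr8:23411487-23412261), and none in clones 1 and 3, where the nearest peak was 154 and 105 kb away. *Sfrp2* had 21 and 46 reads in clones 1 and 2, percentiles 5.7 and 32.1, and its nearest peak in clone 3 was 74.2 kb away. *Dkk3*, a divergent member of its family, had 28 and 16 reads in clones 1 and 2 at percentiles 4.7 and 4.1, beside 4, 8 and 1 body peaks in clones 1, 2 and 3. Neither of its promoter peaks covered the start, and their nearest edges lay 0.597 and 0.963 kb inside the gene. *Dkk1* and *Dkk2*, inhibitors that bind Lrp5 and Lrp6, had no base under a peak within 50 kb in any clone. The nearest peak to *Dkk1* was 424, 425 and 424 kb from its start and that to *Dkk2* 520, 165 and 118 kb.

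The more reads a promoter peak had in clone 2, the more often the gene also had one in the other clones, and 6 genes were without one in clone 3 at read numbers where most genes had one. Of 1034 protein-coding genes whose strongest clone 2 promoter peak had 80 to 119 reads, 84.7% had a promoter peak in clone 1 and 75.0% in clone 3. The 6 genes of the 50 in that range were *Wnt5a*, *Wnt9a*, *Wnt10b*, *Porcn*, *Rspo2* and *Sfrp1*, of which 3 had one in clone 1 and 0 in clone 3. Of the 7 genes with 120 to 179 reads, all Frizzled genes, co-receptors or *Wls*, 7 had one in each of the other clones, beside 96.8% and 91.8% of protein-coding genes. Below 60 reads 2 of 11 had one in clone 1 and 1 of 11 in clone 3, near the 24.8% and 18.8% of 1607 protein-coding genes. The range was chosen after these values were seen, and the number of genes is small.

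**Figure D5:**
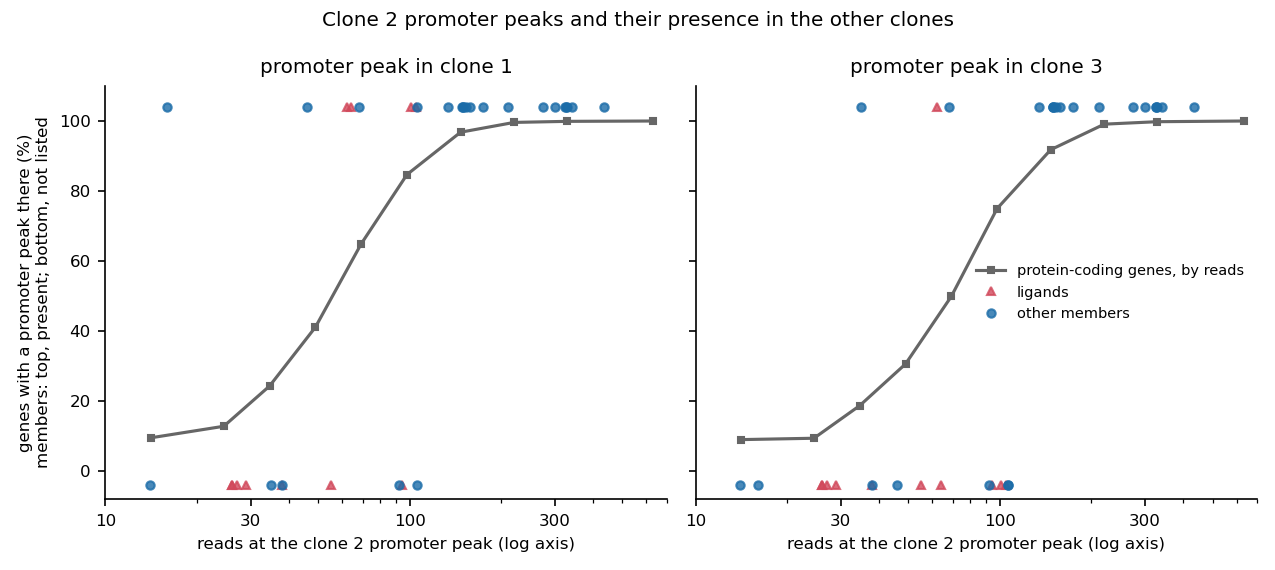
Squares joined by a line give the percent of protein-coding genes with a promoter peak in clone 1 (left) or clone 3 (right), by the reads at their strongest clone 2 promoter peak on a log axis. Triangles (ligands) and circles (other genes of the 50) are drawn at the top where a promoter peak was listed in that clone and at the bottom where it was not. Between 80 and 119 reads 3 genes are at the bottom on the left and 6 on the right.

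Other components of the pathway were taken from lists by role, and their counts stand beside shares of 49.8%, 56.9% and 48.1% of all protein-coding genes in clones 1, 2 and 3, 46.5% in all 3 and 42.6% in none. Differences between these lists were not tested. Of 26 genes of cytoplasmic and nuclear transduction 20, 24 and 19 had a promoter peak in clones 1, 2 and 3, 19 in all 3, and *Lef1* and *Nkd2* in none. Of 11 genes of planar cell polarity 8, 10 and 6 had one, 6 (54.5%) in all 3. Of 22 other extracellular and membrane modulators 8, 11 and 8 had one, 7 in all 3 and 11 (50%) in none. The named genes of these lists were picked after their values were seen. *Axin2*, a target of β-catenin and part of its destruction complex, had promoter peaks with 140, 384 and 100 reads in clones 1, 2 and 3, at percentiles 69.5, 87.7 and 74.8. *Sp5*, another target, had one in clone 2 only.

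Marker genes of cell types were read in the same way. Of 10 fibroblast markers 8, 8 and 6 had a promoter peak in clones 1, 2 and 3, with *Twist1*, *Twist2*, *Vim*, *Prrx1* and *Pdgfrb* in every clone. *Thy1* had none in any clone. Of 9 keratinocyte markers 3, 3 and 2 had one, *Cdh3* and *Itga6* in every clone, whereas *Krt5* had none and no base under a peak within 50 kb. *Trp63*, the keratinocyte master regulator, had 6, 10 and 10 body peaks and no promoter peak, and *Cdh1* had 4, 8 and 2 body peaks. Of 4 hair germ markers 1, 2 and 1 had one, *Sox9* in every clone, and *Lef1* had none. Squamous differentiation (1, 1 and 1 of 4, *Krt10*) and endothelial markers (0, 0 and 0 of 4) were mostly without. Of 5 melanocyte markers 2, 2 and 2 had one, *Mitf* and *Pmel* in every clone, and *Sox10*, *Tyr* and *Dct* had none. This melanocyte share of 40% in all 3 clones is near the 46.5% of all protein-coding genes. Of 4 immune markers 1, 3 and 0 had one, and *Ptprc* had none. In every clone 22.2% of the keratinocyte and 25.0% of the hair germ markers were marked, beside 46.5% of all protein-coding genes. Like *Krt5*, *Trp63* and *Lef1*, the markers *Cdh1*, *Itgb4*, *Epcam* and *Krt17* had no promoter peak in any clone. Fibroblast markers stood at 80%, 80% and 60% in clones 1, 2 and 3, beside 49.8%, 56.9% and 48.1% of all protein-coding genes, but with 5 of 10 marked in every clone their share there was 50%, near the 46.5% of all protein-coding genes. Of all these markers, *Col1a1*, *Col1a2*, *Pdgfra* and the immune marker *Cd68* had a promoter peak in clones 1 and 2 but not in clone 3. *Csf1r*, *Spi1*, the keratinocyte marker *Sfn* and the hair germ marker *Lhx2* had one in clone 2 only. Among all protein-coding genes 2.98% had the former pattern and 6.15% the latter. *Krt14* had a promoter peak in clone 1 only (42 reads) and the fibroblast marker *Col3a1* in clone 3 only (44 reads). The part of cell type in the values of the Wnt genes was not tested.

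The local background under the peaks, which comes from control reads, was not even across chromosomes. On Chr15 it was 1.34, 1.33 and 1.39 times that on other autosomes, and on Chr8 1.38, 1.37 and 1.41 times. Because the control of clone 2 is not known, its values of 1.33 and 1.37 cannot be assigned to the DNA of that clone. *Wnt1*, *Wnt7b*, *Wnt10b*, *Fzd6* and *Rspo2* lie on Chr15 and *Sfrp1* on Chr8. Reads at a summit were not corrected for this, and its part in the number of peaks at these 6 genes was not tested.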

How the data were processed

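Single-end reads were mapped by the authors to GRCm38 with Bowtie2, and peaks were called for each clone. MACS2 2.1.1 is named in the submitters' processing notes. Peak names state that reads of clones 1 and 2 were filtered for mapping bias between alleles, and those of clone 3 do not say so. The part of this difference in the genes not listed in clone 3 was not tested. The deposited lists give each summit's fold enrichment, a ratio of ChIP pileup to local background with 1 added to each, and the −log10 of its p-value and q-value as the authors' caller wrote them. ChIP reads at a summit were solved from fold and p (100% of peaks; tested on simulated data, 100% of 3994 right). Precision is limited by the 3 clones and by the threshold of each list.

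Peaks of the autosomes, X and Y were set against gene starts of GENCODE M21, on GRCm38, with an overlap of at least 1 bp, in Python 3.11.15 with numpy 2.4.6, pandas 2.3.3 and matplotlib 3.10.9. Coordinates count from 1. With 1 condition, no test was made. The genes and lists were chosen with earlier results of these data known. Values of every clone are given for up to 12 genes with promoter peaks in all clones, in order of median percentile, for genes with one in 1 or 2 clones, for *Wnt7b*, and for the 5 unmarked genes with the most bases under peaks. Alternatives were other windows, starts, thresholds and numbers of peaks, and leaving out each clone.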

Additional observations from a re-analysis of the deposited data

How the results depend on the processing

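Of 59 alternatives of 6 results, 51 moved a count by no more than 1.5 times or a value by less than the SD over clones. The number of genes with a promoter peak in all 3 clones went from 17 to 11 when the peak had to cover a start base, and was 17 to 23 when 1 clone was left out. The 1 ligand among them, *Wnt5b*, was lost (0 ligands) with the outermost start only, with a covered start base, with −log10 q of at least 5, and when peaks of the 3 clones had to overlap each other, a setting added after the data were seen; without 1 clone the number was 1 to 4, the 4 without clone 3. Within 100 kb the median bases under peaks rose to 4627.5, since more sequence is counted, and the median rank of *Wnt7b* went from 6 to 1, with the peaks that lie between 50 and 100 kb from it. No paired analysis between conditions was possible because all 3 lists belong to a single condition and the IgG libraries came without lists. A site below the lowest reads of a list could not be seen.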
